A study of Mus musculus with 8 samples.

Results

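The genes that read out and carry the activity of YAP and TAZ, the transcriptional coactivators at the end of the Hippo pathway, were followed in mouse embryonic fibroblasts (MEFs) after chemical demethylation of DNA. They are 10 of the 16590 genes on the array, and were taken by symbol from the probe annotation: the target genes Ccn1 (formerly Cyr61), Ccn2 (formerly Ctgf), Ankrd1, Amotl2, Axl and Lats2, the coactivators Yap1 and Wwtr1 (which encodes TAZ), their DNA-binding partner Tead1, and Ajuba, a regulator of the kinases upstream. They carry 15 of the 25697 probes. Of these, 14 were detected and kept, among 14308 kept probes, and 9 of the 10 genes could be tested, among 9502 tested genes. In the study the drug served as a second way, beside a Dnmt1 mutation, to obtain cells with reduced DNA methylation. Both groups were MEFs of genotype Trp53-/- Dnmt1+/+, cultured for 72 h. One group received 5-aza-dC (5-aza-2'-deoxycytidine), a nucleoside that replicating cells build into DNA, where it traps the methyltransferases, at a labelled dose of 1 µM, and the other received the solvent DMSO as the control. This dose is higher than that in the study's methods, and the sources used here do not settle the difference. Each group had 2 biological replicates, each hybridised to 2 technical arrays, so there were 4 arrays per group and 8 in all. The cells of both groups thus have no p53, the tumour suppressor, their background strain is unknown per the labels, and per the study the treated and untreated cells were drawn from 1 common stock of MEFs. What sets the 2 replicates of a group apart is not stated in the sources used here, so p-values rest on a spread between replicates that may be technical. The fit estimates that spread in part from all tested genes.

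In the Hippo pathway the kinases MST1 and MST2 activate LATS1 and LATS2, which phosphorylate YAP and TAZ and so keep them in the cytoplasm or mark them for degradation. Unphosphorylated YAP and TAZ enter the nucleus and bind TEAD proteins, which recognise the letters GGAATG or their complement in promoters and enhancers. In fibroblasts the pathway responds to cell density, stiffness of the substrate and serum, and CCN1, CCN2 and ANKRD1 are its most used transcriptional readouts. LATS2 and AMOTL2 are also YAP and TAZ targets, and since both proteins restrain YAP and TAZ, they form a feedback loop.

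The promoters of the genes were read first, for the sites through which TEAD proteins are known to act. RefSeq promoter windows of build GRCm38.p6, which hold 250 bases before and 50 bases after the start site, were found for 8 of the 10 genes. The letters GGAATG, on either strand and allowing overlaps, occurred in 9 of the 10 windows of these genes, while they occurred in 14.7% of the 32851 windows of the table. The window without them is the second of 2 of Lats2. The 2 windows of Wwtr1 overlap and hold the same match, which is thus counted in both. By gene, 8 of 8 had a match in at least 1 window, against 16.6% of the 27025 genes with a window. Ankrd1 and Ajuba had 2 matches each, a number reached in 1.36% of all windows. The AP-1 motif TGANTCA, searched in the same way, was in 0 of the 10 windows and in 7.81% of all windows. The genes were picked as known YAP and TAZ genes and the motif for its known role there, so these shares describe the windows and do not test the set. A match is a run of letters, not a measured binding site, and no TEAD binding or promoter methylation was measured on these arrays. The 250 bases before the start site are shown for the 4 genes that rose and have a window, since these carry the changes described below, in gene orientation, 5′ to 3′, with the TEAD motif or its complement in capitals.
Ankrd1, chr19:36119845-36120094, minus strand: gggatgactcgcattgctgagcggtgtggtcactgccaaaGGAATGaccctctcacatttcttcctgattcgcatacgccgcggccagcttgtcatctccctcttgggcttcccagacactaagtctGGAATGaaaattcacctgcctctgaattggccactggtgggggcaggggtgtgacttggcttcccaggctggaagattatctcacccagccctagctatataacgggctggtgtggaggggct
Ccn1, chr3:145649986-145650235, minus strand: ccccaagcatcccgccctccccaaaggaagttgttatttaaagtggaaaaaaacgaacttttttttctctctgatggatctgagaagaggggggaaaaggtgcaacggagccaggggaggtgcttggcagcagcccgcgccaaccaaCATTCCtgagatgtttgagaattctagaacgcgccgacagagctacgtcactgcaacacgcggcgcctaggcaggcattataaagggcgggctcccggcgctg
Wwtr1, chr3:57575911-57576160, minus strand: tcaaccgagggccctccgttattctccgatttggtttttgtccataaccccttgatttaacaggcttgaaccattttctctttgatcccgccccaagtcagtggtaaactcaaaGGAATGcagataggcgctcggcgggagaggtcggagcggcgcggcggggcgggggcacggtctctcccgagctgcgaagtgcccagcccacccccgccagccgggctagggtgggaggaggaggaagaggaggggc
Ajuba, chr14:54577662-54577911, minus strand: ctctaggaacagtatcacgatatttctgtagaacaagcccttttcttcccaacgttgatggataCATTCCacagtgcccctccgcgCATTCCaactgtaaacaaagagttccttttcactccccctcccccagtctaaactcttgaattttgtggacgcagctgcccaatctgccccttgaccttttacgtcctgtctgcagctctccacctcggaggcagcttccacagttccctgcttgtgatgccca
The first letter of the match lay 210 and 123 bases before the start site in Ankrd1, 103 in Ccn1, 136 in Wwtr1, and 186 and 164 in Ajuba. The 40 bases around the match are shown for the 4 tested genes that did not pass, so that the sites of both sets can be set side by side.
Amotl2, chr9:102717722-102717761, plus strand: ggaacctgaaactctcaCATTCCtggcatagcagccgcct
Axl, chr7:25788944-25788983, minus strand: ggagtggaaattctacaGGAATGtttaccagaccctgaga
Lats2, chr14:57746097-57746136, minus strand: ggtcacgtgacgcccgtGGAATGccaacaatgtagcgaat
Yap1, chr9:8004715-8004754, minus strand: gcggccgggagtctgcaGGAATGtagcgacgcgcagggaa
The match lay 65 bases before the start site in Amotl2, 233 in Axl and 141 in Yap1, and at position 5 after it in Lats2. The motif was thus in at least 1 window of 4 of 4 genes that rose and of 4 of 4 that did not pass. Over the tested genes with a window, 25.4% of the 1120 with the motif and 26.1% of the 6600 without it were called higher, and 29.6% of those with the motif and 25.1% of those without it were called lower.

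The mean signal per array was 295 to 376 and 12841 to 13595 probes were detected, where a probe counts as detected at a detection p-value under 0.05. Normalised log2 levels of technical arrays of 1 replicate correlated at r = 0.997 to 0.998 over the kept probes, and arrays of different groups at 0.919 to 0.930. Dnmt1 was detected on all 8 arrays, and no probe used here is annotated to Trp53, so the deletion could not be checked. The 7 fibroblast markers on the array were detected in both groups, while their summed signal was 15889 to 18481 on 5-aza-dC arrays and 33023 to 35420 on control arrays. Of the epithelial markers, 4 of 4 were detected on a 5-aza-dC array and 1 of 4 on a control array (Cdh1). Their summed signal was 1307 to 1643 on 5-aza-dC arrays and 198 to 221 on control arrays. The keratin genes Krt8, Krt14 and Krt18 were called higher, by at least 27.8-fold, 11.7-fold and 7.39-fold. Cdh1 was dim and hardly moved, at 4.95 in 5-aza-dC and 4.88 in control on average (adjusted p = 0.651, limma). Endothelial markers were detected for 0 of 3 genes in 5-aza-dC and 1 of 3 in control, and blood markers for 0 of 2 in both. The part of these marker differences in the members' changes was not tested. In RNA from whole cultures, fewer cells of a type and less RNA per cell cannot be told apart.

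Ankrd1 had the largest change of the members. It encodes a nuclear ankyrin repeat protein that is low in resting fibroblasts, induced by stretch, and abundant in heart. At probe ILMN_2950286 its normalised level, in log2 units here and for the other members, was 11.52 and 11.56 in 5-aza-dC replicate 1 and 11.36 and 11.32 in replicate 2, against 7.73 and 7.62 in control replicate 1 and 7.60 and 7.65 in replicate 2. All 4 5-aza-dC arrays were above all control arrays, and the lowest of them was 3.59 log2 units above the highest control array. Ankrd1 was 13.8-fold higher in 5-aza-dC (log2 fold change 3.79 ± 0.12, SE, adjusted p = 2.662e-05, limma, n = 2 replicates per group). It ranked at position 13 of the 9502 tested genes ordered by rise. The second probe, ILMN_2625451, read 15.8-fold. Its levels ran between 10.68 and 11.05 on the 5-aza-dC arrays and between 6.76 and 6.98 on the control arrays. Since Ankrd1 is also a muscle gene, the muscle markers were read beside it. Actn2 and Myh6 were detected on 0 of 8 arrays, Myog had a log2 fold change of -0.23 (adjusted p = 0.226), and the summed signal of the muscle list was 240 to 260 on 5-aza-dC arrays and 226 to 253 on control arrays. Myog was dim, at 4.96 in 5-aza-dC and 5.19 in control on average, and the listed Tnnt2 and Myh3 had no probe. Whether the rise of Ankrd1 is part of a muscle programme was not tested.

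Ccn2, the gene of connective tissue growth factor, a secreted matricellular protein that promotes fibrosis, was the second of the 3 targets that rose. Its single probe, ILMN_2909150, had levels of 13.83 and 13.81 in 5-aza-dC replicate 1 and 13.28 and 13.28 in replicate 2, against 11.10 and 11.14 in control replicate 1 and 11.46 and 11.36 in replicate 2. The groups were apart by 1.83 log2 units at their nearest arrays. Within 5-aza-dC, replicate 1 stood above replicate 2, while within the control it stood below. The change was 4.88-fold (log2 fold change 2.29 ± 0.23, adjusted p = 7.054e-04), with a 95% interval of 1.71 to 2.86 that was the widest of the members that rose.

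Ccn1, which encodes a secreted matricellular protein that binds integrins, was read by 3 probes, all detected on all arrays. At the brightest probe, ILMN_2794645, the levels were 10.97 and 11.30 in 5-aza-dC replicate 1 and 11.14 and 11.06 in replicate 2, against 9.87 and 9.72 in control replicate 1 and 9.70 and 9.74 in replicate 2. The change was 2.57-fold (log2 fold change 1.36 ± 0.12, adjusted p = 4.015e-04). The other two probes read log2 fold changes of 1.36 (ILMN_1235571) and 1.54 (ILMN_2710253), and at each of the 3 probes the lowest 5-aza-dC array was at least 1.10 log2 units above the highest control array.

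**Figure D1:**
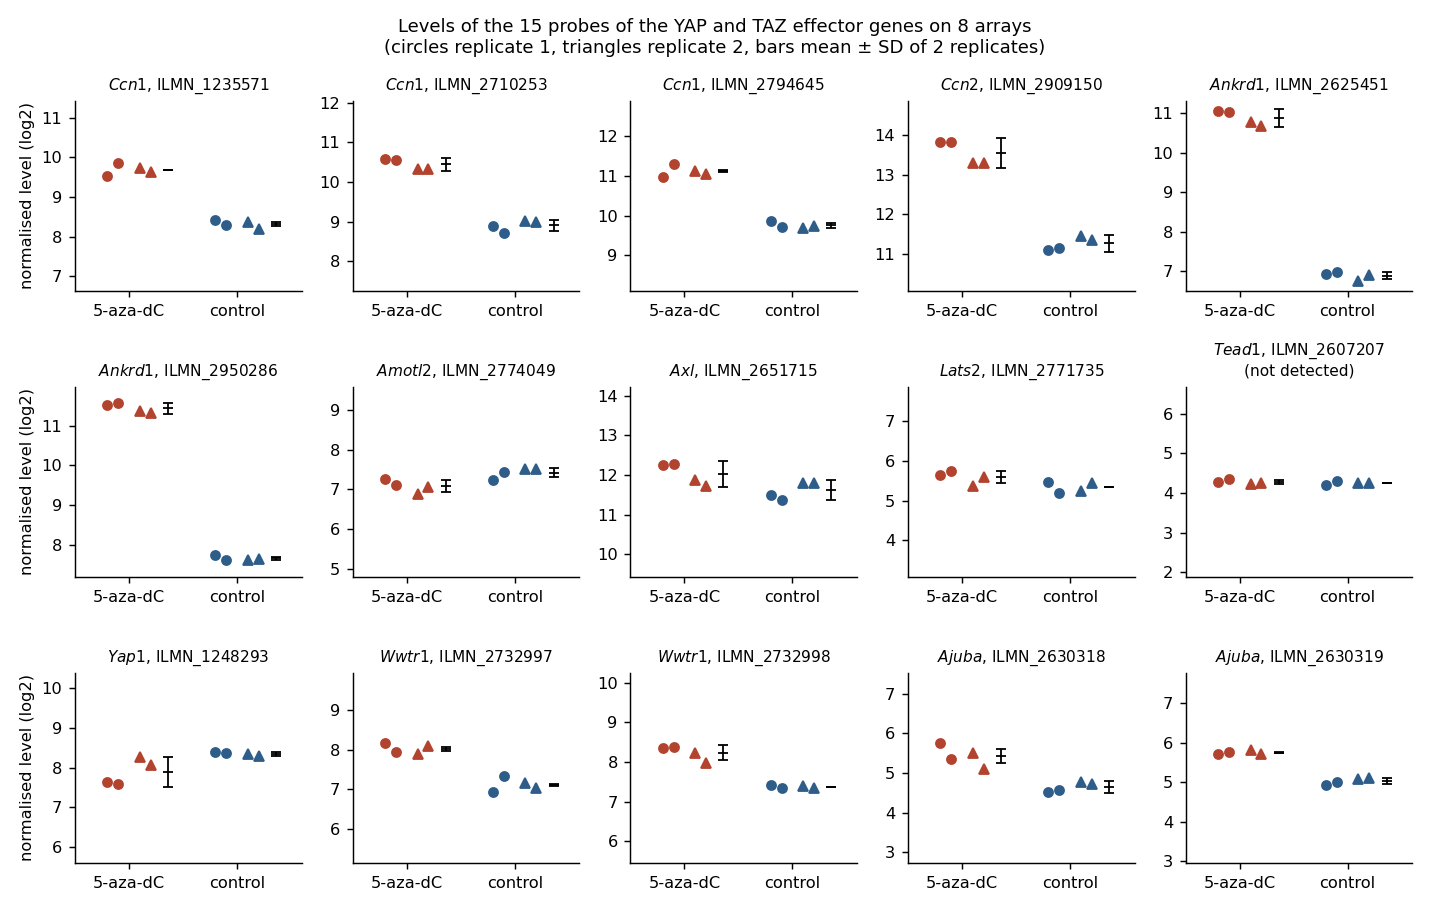
Normalised log2 level of each of the 15 member probes on the 8 arrays, with 5-aza-dC on the left and control on the right of each panel. Circles are the technical arrays of replicate 1, triangles those of replicate 2, and bars the mean ± SD of the 2 replicates; every panel spans the same range of log2 units. The 2 Ankrd1 panels show the widest gap, and the Yap1 panel shows 5-aza-dC replicate 1 at 7.60 to 7.63, below replicate 2 at 8.07 to 8.26.

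The other 3 targets did not pass. Amotl2 encodes a member of the motin family, which holds YAP at cell junctions. Its level was 7.26 and 7.11 in 5-aza-dC replicate 1 and 6.87 and 7.07 in replicate 2, against 7.24 and 7.43 in control replicate 1 and 7.51 and 7.50 in replicate 2. The groups overlapped at 1 array each, and the log2 fold change was -0.34 ± 0.13 (95% interval -0.65 to -0.03 before adjustment, adjusted p = 0.0647). The call depended on the setting: Amotl2 was called lower with arrays scaled to their median (log2 fold change -0.46, adjusted p = 0.0246). Without 5-aza-dC replicate 1 the log2 fold change was -0.45.

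Axl encodes a receptor tyrosine kinase of the TAM family. Its level was 12.24 and 12.28 in 5-aza-dC replicate 1 and 11.87 and 11.72 in replicate 2, against 11.51 and 11.38 in control replicate 1 and 11.80 and 11.81 in replicate 2. Replicate 2 of both groups overlapped, and the log2 fold change was 0.40 ± 0.22 (95% interval -0.14 to 0.94, adjusted p = 0.176). Without 5-aza-dC replicate 2 it was 0.63, and without 5-aza-dC replicate 1 it was 0.17.

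Lats2 encodes one of the kinases that phosphorylate YAP and TAZ. Its probe was dim, with levels of 5.65 and 5.75 in 5-aza-dC replicate 1 and 5.36 and 5.61 in replicate 2, against 5.48 and 5.21 in control replicate 1 and 5.25 and 5.44 in replicate 2. The groups overlapped, with a log2 fold change of 0.25 ± 0.11 (95% interval -0.02 to 0.52, adjusted p = 0.109). Without 5-aza-dC replicate 2 it was 0.36, and without 5-aza-dC replicate 1 it was 0.14.

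The 2 coactivators had changes of opposite sign, of which that of Wwtr1 passed. Wwtr1 had levels of 8.36 and 8.37 in 5-aza-dC replicate 1 and 8.23 and 7.98 in replicate 2 at probe ILMN_2732998, against 7.42 and 7.35 in control replicate 1 and 7.40 and 7.35 in replicate 2. The groups did not overlap, and Wwtr1 was 1.81-fold higher (log2 fold change 0.86 ± 0.12, adjusted p = 0.00247). The second probe, ILMN_2732997, read a log2 fold change of 0.91, with levels of 7.88 to 8.16 on 5-aza-dC arrays and 6.93 to 7.34 on control arrays.

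Yap1 had levels of 7.63 and 7.60 in 5-aza-dC replicate 1 and 8.26 and 8.07 in replicate 2, against 8.40 and 8.36 in control replicate 1 and 8.34 and 8.29 in replicate 2. All 5-aza-dC arrays were below all control arrays, but the 5-aza-dC replicates differed from each other by more than replicate 2 differed from the control. The log2 fold change was -0.46 ± 0.19 (95% interval -0.92 to 0.01, adjusted p = 0.0893) and did not pass. It rested on 5-aza-dC replicate 1. Without that replicate it was -0.19, and without 5-aza-dC replicate 2 it was -0.73. The change of Wwtr1 exceeded that of Yap1 by 1.32 log2 units. An exact two-sided permutation test of this difference over the replicates gave p = 0.333, the smallest value that 2 replicates per group allow, so the test could not have passed and says nothing on whether the changes differ.

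Ajuba encodes a LIM domain protein that binds LATS kinases and, in cultured cells and in Drosophila, restrains them. At probe ILMN_2630319 its level was 5.72 and 5.75 in 5-aza-dC replicate 1 and 5.80 and 5.71 in replicate 2, against 4.92 and 5.02 in control replicate 1 and 5.07 and 5.10 in replicate 2. The groups did not overlap, and Ajuba was 1.65-fold higher (log2 fold change 0.72 ± 0.10, adjusted p = 0.00186). The probe lies near background, so the size of the change depended on the background correction: with an offset of 50 in place of 16 the log2 fold change was 0.40, and in the deposited normalised intensities it was 0.37, passing in both. The second probe, ILMN_2630318, was detected on 4 of 4 5-aza-dC arrays and on 0 of 4 control arrays. There Ajuba was at least 1.48-fold higher, against the dimmest detected probe or its own signal, whichever was higher on each control array. This bound also depended on the background correction, and was 1.23-fold with the offset of 50 and 1.21-fold in the deposited normalised values. Tead1, the DNA-binding partner, was detected on 0 of 8 arrays by its only probe. Its signal was 38.9 to 45.7 on 5-aza-dC arrays and 37.9 to 43.4 on control arrays, which sets only an upper limit to its level, and it was not tested.

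Of the 9 tested members, 5 were called higher and 0 lower at an adjusted p under 0.05, and 4 did not pass. Over all tested genes, 26.3% were called higher and 25.7% lower, so calls in either direction were common in this comparison. By size, 3 of 9 members were called higher and over 2-fold, against 7.5% of all tested genes, and 1 of 9 over 8-fold, against 0.463%. All 5-aza-dC arrays were above all control arrays for 5 of 9 members (31.6% of all tested genes) and below for 1 of 9, Yap1 (31.4% of all tested genes). At the level of probes, 10 of the 14 kept member probes were called higher, against 27.2% of all kept probes, and the probes of a gene agreed in direction and call in each of the 4 members with more than 1 probe. The median log2 fold change was 0.72 over the tested members and -0.02 over all tested genes. The members were picked as a known set with earlier results of these data in view, so these counts describe them and do not test the set.

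**Figure D2:**
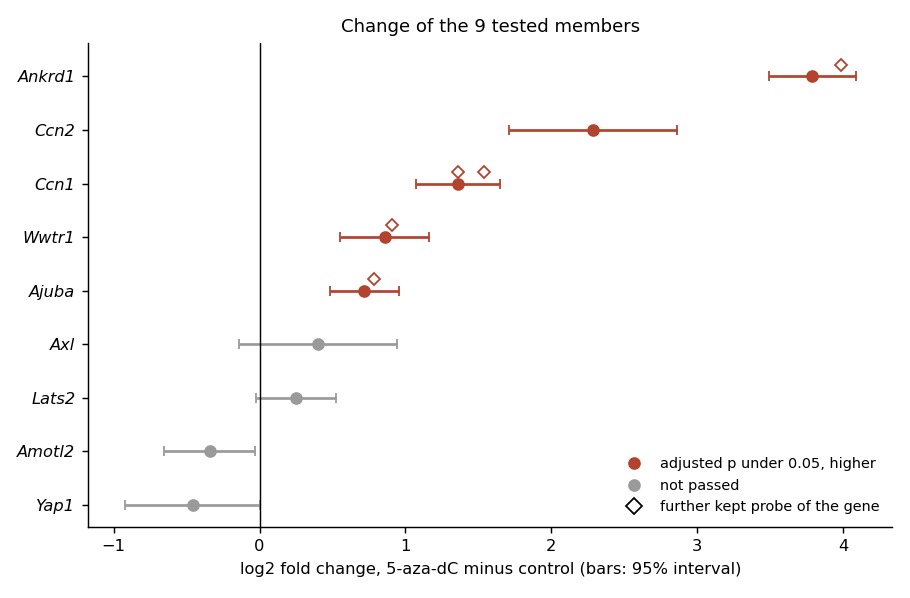
Log2 fold change, 5-aza-dC minus control, of the 9 tested members (x axis), with bars for the 95% interval of the limma fit and open diamonds for further kept probes of the same gene. Ankrd1, Ccn2, Ccn1, Wwtr1 and Ajuba lie above 0 at 3.79, 2.29, 1.36, 0.86 and 0.72, while the intervals of Axl, Lats2 and Yap1 include 0; the diamond of Ajuba is a probe not detected on control arrays.

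**Figure D3:**
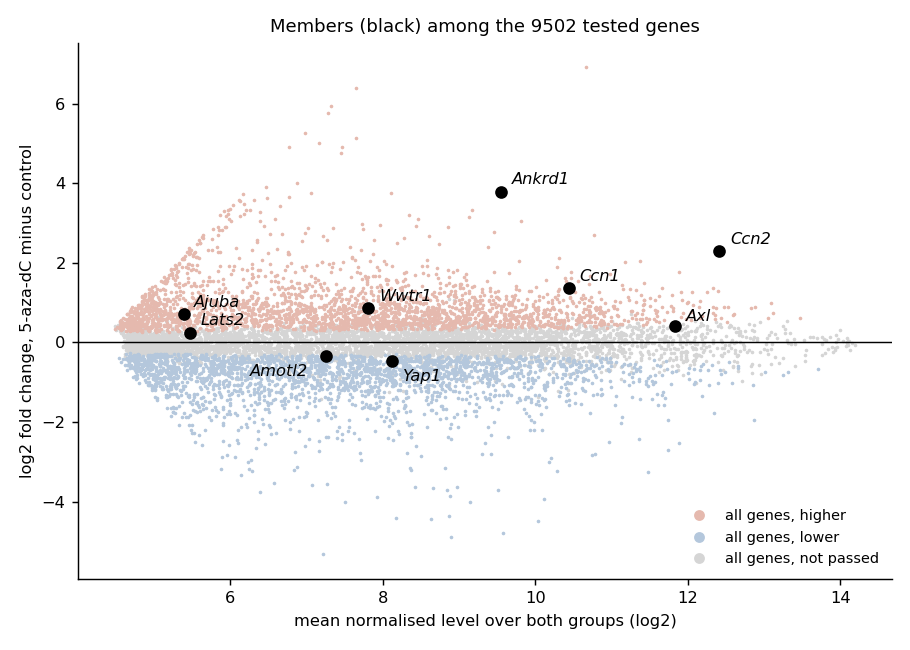
Log2 fold change (y axis) against the mean normalised log2 level over both groups (x axis) for the 9502 tested genes, with the 9 tested members in black. By size of the rise Ankrd1 ranks at position 13, Ccn2 at 95 and Ccn1 at 354, and Yap1 and Amotl2 lie below 0 among genes that did not pass.

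The rest of the pathway was read from lists of its known genes. Together, 47 further genes were listed, 36 had a probe and 29 could be tested. Among these, 13 were called higher, 7 lower and 9 did not pass, with a median log2 fold change of 0.25 against -0.02 over all tested genes. These are 44.8% higher and 24.1% lower, against the 26.3% and 25.7% of all tested genes, and the counts of the single lists below, each of 10 genes or fewer, stand against the same background.

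Of the core kinase cascade and its scaffolds, 10 of 17 listed genes were tested, of which 5 were called higher and 1 lower. Wwc1, which encodes KIBRA, a scaffold that activates LATS kinases, was 2.50-fold higher (log2 fold change 1.32, adjusted p = 5.149e-04), with 1.32 to 2.04 over its 2 kept probes, both called higher. Map4k4, a kinase that can phosphorylate LATS in parallel to MST1 and MST2, was 2.01-fold higher (adjusted p = 7.209e-04), and Stk4, the gene of MST1 itself, 1.78-fold higher (adjusted p = 0.00147). These 3 products act in the arm of the pathway that restrains YAP and TAZ. In the other direction, Fat4, an atypical cadherin placed upstream of the pathway by work in Drosophila, was detected on 0 of the 5-aza-dC arrays and 4 of the control arrays, and was at least 3.94-fold lower (adjusted p = 5.635e-05). The size of this bound depended on the background correction, being 2.31-fold with an offset of 50 and 2.30-fold in the deposited normalised values, with Fat4 called lower in both. Mob1a, the cofactor of LATS, had a log2 fold change of 0.25 (95% interval -0.25 to 0.74) and did not pass. Its change was 0.52 without 5-aza-dC replicate 2 and -0.029 without 5-aza-dC replicate 1. Wwc2, a paralogue of Wwc1, had -0.02 (95% interval -0.34 to 0.30) at its brightest probe and 0.66, called higher, at its other probe.

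Of the genes for proteins that bind YAP and TAZ or set their turnover, 6 were tested, of which 3 were called higher and 1 lower. Csnk1d, a casein kinase that takes part in marking YAP and TAZ for degradation, was 2.04-fold higher (adjusted p = 0.00216). Its 5 kept probes had log2 fold changes of 0.06 to 1.10, 4 of them called higher. Ptpn14, a phosphatase that retains YAP in the cytoplasm and is itself a target, was 1.86-fold higher (log2 fold change 0.90, adjusted p = 0.00109). With an offset of 50 its log2 fold change was 0.57 and in the deposited normalised values 0.55, called higher in both. Wtip, a relative of Ajuba, had a log2 fold change of 0.36 (adjusted p = 0.0343). This call was lost with the replicate number as a block (adjusted p = 0.159) and with median scaling (adjusted p = 0.108). The log2 fold change was 0.36 without control replicate 1 and 0.35 without control replicate 2. Btrc, the ubiquitin ligase subunit that recognises the phosphorylated proteins, was 1.75-fold lower (adjusted p = 0.00211). Limd1 (log2 fold change 0.28, adjusted p = 0.0570) and Csnk1e (0.15, adjusted p = 0.308) did not pass.

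With Tead1 undetected, the other TEAD genes were read beside it. Tead4 was 1.97-fold higher (log2 fold change 0.98 ± 0.10, adjusted p = 6.659e-04), with 0.32 to 0.98 over 3 kept probes, all called higher. The size depended on the background correction: the log2 fold change was 0.67 with an offset of 50 and 0.65 in the deposited normalised values, called higher in both. Tead2 was 1.55-fold lower (log2 fold change -0.64 ± 0.11, adjusted p = 0.00500). Its change was -0.64 without control replicate 1 and -0.63 without control replicate 2. Tead3 was detected on 0 of the 5-aza-dC arrays and 4 of the control arrays and was at least 1.21-fold lower (adjusted p = 0.00256), a bound that came to 1.09-fold with an offset of 50 and 1.12-fold in the deposited normalised values. Tead4 was thus called higher and Tead2 and Tead3 lower, with Tead3 near background and removed by the stricter detection filter. Vgll4, a TEAD binding protein that competes with YAP, had a log2 fold change of 0.02 (95% interval -0.29 to 0.33).

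Of the further YAP and TAZ target genes, 10 of 16 listed were tested, of which 5 were called higher, 3 lower and 2 did not pass. Crim1, a transmembrane protein that binds bone morphogenetic proteins, was 2.17-fold higher (adjusted p = 7.209e-04), and Ptpn14 rose as given above. In contrast, Ccdc80, a secreted matrix protein, was 3.98-fold lower (adjusted p = 1.595e-04) and Rbms3, an RNA-binding protein, was 3.88-fold lower (adjusted p = 1.005e-04). Asap1 (log2 fold change 0.24, 95% interval -0.16 to 0.64) and Tgfb2 (0.02, 95% interval -0.27 to 0.30) did not pass. The change of Asap1 was 0.40 without 5-aza-dC replicate 2 and 0.08 without 5-aza-dC replicate 1. The list was thus split, and its median of 0.32 lies between both directions.

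The CCN family was split as well. Besides Ccn1 and Ccn2, which rose, Ccn4 was 7.16-fold lower (log2 fold change -2.84 ± 0.19, adjusted p = 1.741e-04), at 9.32 in 5-aza-dC and 12.16 in control on average, with -2.84 to -2.78 over 2 kept probes. Ccn5 was 3.18-fold lower (log2 fold change -1.67 ± 0.11, adjusted p = 1.756e-04). Ccn4 and Ccn5, also called Wisp1 and Wisp2, are known as Wnt-inducible members of the family and are expressed by matrix-producing fibroblasts. Of the 7 fibroblast markers tested, 4 were called lower, namely Col1a1 (log2 fold change -2.52), Col1a2 (-2.71), Pdgfrb (-2.38) and Pdgfra (-1.69). Thy1 was called higher (0.42, adjusted p = 0.0458), while S100a4 (1.10, adjusted p = 0.0997) and Vim (0.15, adjusted p = 0.630) did not pass. The part of these markers in the changes of Ccn4 and Ccn5 was not tested.

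**Figure D4:**
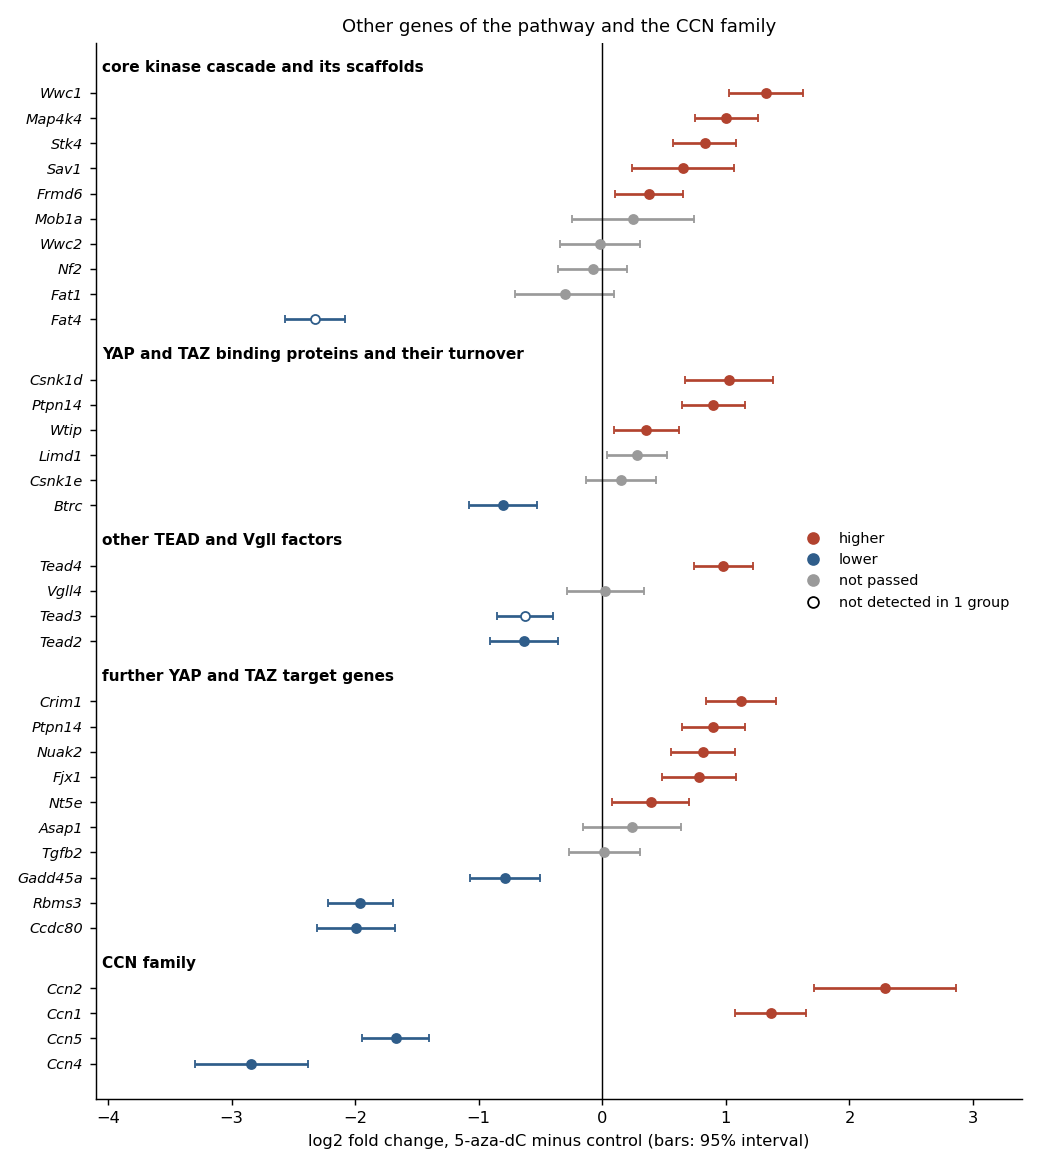
Log2 fold change, 5-aza-dC minus control (x axis), of the other tested pathway genes and of the CCN family, by list, with bars for the 95% interval of the limma fit. Red marks genes called higher, blue genes called lower, grey genes that did not pass and open circles genes not detected in 1 group; all 5 lists hold genes of both directions, and Ptpn14 stands in 2 of them.

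Genes whose level ran most like the 2 CCN targets were looked up over the 8 arrays by Pearson's r of normalised levels. For Ccn2 these were Map2k3, Tnfrsf22, Spdl1, Mcm3 and Rrm1, each with r = 0.999, and for Ccn1 they were D10Wsu102e, Rassf3, Lin28a, Bpnt1 and Apoh, with r between 0.996 and 0.998. The 8 arrays come from 4 replicates in 2 groups that lie apart, so any gene with a clear rise has a high r: 1585 of 9501 genes exceeded 0.95 with Ccn2 and 1398 with Ccn1. The ranking is a description of these arrays.

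Of 13 other settings of the processing, those that leave out a replicate cannot measure the spread in its group and are read for effect size only. In each of the rest, Ccn1, Ccn2, Ankrd1, Wwtr1 and Ajuba were called higher. Over all 13, their log2 fold changes ran between 1.26 and 1.42 for Ccn1, 2.02 and 2.55 for Ccn2, 3.51 and 3.89 for Ankrd1, 0.73 and 0.99 for Wwtr1, and 0.37 and 0.78 for Ajuba. With all replicates kept, Amotl2, Axl and Yap1 passed with technical arrays entered singly and with the crossed replicate block. Amotl2 also passed with median scaling, while Lats2 passed in no such setting. Each call was in the direction given above.

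**Figure D5:**
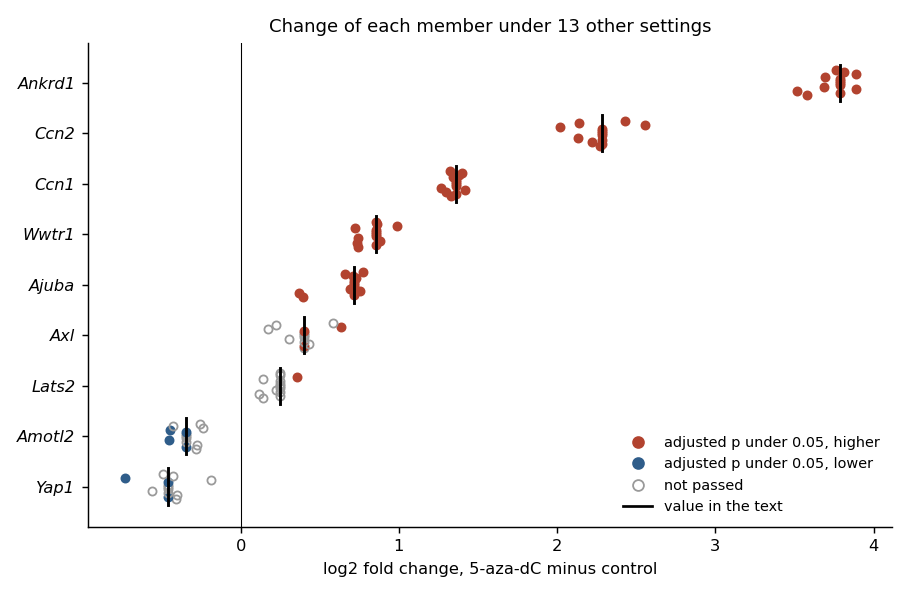
Log2 fold change, 5-aza-dC minus control (x axis), of each tested member under 13 other settings, with the value of the text as a black line. Filled points passed at an adjusted p under 0.05 and open points did not, and the points of a gene are spread vertically only to be seen. Settings that leave out a replicate cannot measure the spread in its group, so their fill is not read as a call. The 5 upper genes hold filled points only, and no gene has points on both sides of 0.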

How the data were processed

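Total RNA of MEFs was hybridised to 8 Illumina bead arrays, 4 of 5-aza-dC and 4 of control. Per the file headers, the deposited non-normalised table holds a linear signal intensity per probe and array beside a detection p-value, which ranks the probe against negative control probes. The authors also deposited normalised intensity values, which they made with lumi (version not given in the sources used here) by background subtraction, variance stabilisation and robust spline normalisation. The array named in the methods covers the whole genome, whereas the probe annotation used here belongs to the related RefSeq array.

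Signals were background-corrected and quantile-normalised with neqc of limma 3.58.1 in R 4.3.3, on the log2 scale, with an offset of 16. Negative controls were inferred through the detection p-values. Probes with a detection p-value under 0.05 on at least 2 of 8 arrays were kept. Symbols came from the platform's probe table, updated through RefSeq gene tables: 23978 probes carried 1 symbol and 1719 none. A gene was read by its brightest kept probe over all arrays. Technical arrays were averaged, and 2 replicates per group were compared with lmFit and eBayes (with trend), two-sided, with Benjamini-Hochberg adjustment over the 9502 genes, or over all kept probes for values of further probes. With 2 replicates the fit had 2 residual degrees of freedom beside 3.82 prior ones, and the median SE was 0.12 log2 units. Where a probe was not detected on any array of a group, a lower bound of the fold was given.

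Samples were grouped by their labels. Replicate numbers are shared by both groups, and the labels do not say whether a number marks a shared culture or day. The main fit had no block. The members, the lists (core kinase cascade, binding and turnover proteins, TEAD and Vgll factors, further targets, CCN family, and markers of fibroblasts, epithelium, endothelium, blood and muscle) and the motifs were chosen with earlier results of these data known. Named genes were the 10 members, in each list up to 4 called genes of largest change and up to 2 of highest level that did not pass, and the 5 genes nearest to Ccn2 and to Ccn1. Alternatives were an offset of 50, median scaling, the deposited normalised values, no detection filter and a stricter one (detection p-value under 0.01 on 4 arrays), the mean of all kept probes, technical arrays entered singly, a replicate block, each replicate left out and, added after seeing the data, a crossed block and the lower bounds under other normalisations. Arrays carry no read depth, and their number limits the precision. Sequences are RefSeq promoter windows matched by symbol, and probe positions were not used here.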

Additional observations from a re-analysis of the deposited data

Results flagged for a closer look

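No member probe had an array standing apart from the other 3 of its group by Dixon's test, in 30 checks of 15 probes and 2 groups at the 95% level.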

How the results depend on the processing

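The alternatives that leave out a replicate cannot measure the spread in its group, so their calls are not counted here. Of the other alternatives, none changed the count of 5 members called higher except technical arrays entered singly and the crossed replicate block (6 each). The count of members called lower, 0, became 1 with median scaling (Amotl2), 2 with technical arrays entered singly and 2 with the crossed replicate block (Amotl2 and Yap1 in both). With the replicate number as a block (replicate block), 5 members were called higher and 0 lower, and 2177 of all genes higher and 2208 lower, against 2497 and 2444 without it. Deviations of same-numbered replicates correlated at -0.60, and with the numbers crossed, an alternative chosen after seeing the data, 3043 genes were called higher and 3128 lower. Without control replicate 1, 1568 genes were called higher and without control replicate 2, 1618, and over the 4 left-out replicates the count was 1568 to 2943. Over the other pathway genes the replicate block gave 10 higher and 7 lower, ending the calls of Wtip (adjusted p = 0.159), Frmd6 (0.134) and Nt5e (0.0754), and their median log2 fold change of 0.25 became 0.11 with no detection filter, where more dim genes enter. Among single genes named here or listed, signs turned only for some that did not pass. These were Wwc2 (0.012 in the deposited normalised values, 0.32 as the mean of its probes), Vgll4 (-0.086 with median scaling) and Tgfb2 (-0.10 with median scaling). Over the 4 left-out replicates they were Mob1a (-0.029 to 0.52), Nf2 (-0.17 to 0.013), Vgll4 (-0.10 to 0.15) and Tgfb2 (-0.086 to 0.12). The cause of these shifts was not tested. Median scaling moved the median of all genes to -0.09.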
